A study of Mus musculus and Homo sapiens with 40 samples.

Results

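H3K4me1 and H3K27ac were compared in untreated p42-expressing HPC-7 cells. HPC-7 cells, a line of mouse blood progenitors that grows in stem cell factor, were here transduced with a constitutive plasmid for CEBPA p42, the full-length isoform, fused to ERT2. The study's methods give 4-hydroxytamoxifen to bring such fusions into the nucleus, while the labels of these samples state the treatment as none. All cells behind the H3K4me1 and H3K27ac lists compared here carry the p42-ERT2 transgene, so these lists do not show the marks without it. Lists of untreated cells with the shorter isoform p30 fused to ERT2 are set beside them near the end. So is the H3K27ac list of p42 cells given LPS. The H3K4me1 list pooled 2 samples and the H3K27ac list pooled 3 samples, and the labels do not say whether these came from separate cultures. Peaks on chromosomes 1 to 19 and X were kept, and peaks of either list that shared at least 1 bp were merged. This gave 180837 regions out of 134650 H3K4me1 and 129345 H3K27ac peaks. The union of the 10 mouse peak lists of the series held 283768 regions. Each region was classed as carrying both marks, H3K4me1 only or H3K27ac only. Because each list pools its replicates, no value below has a replicate error. Intervals in parentheses are Wilson 95% intervals, and they cover counting error only. The study states a range of read depth for its ChIP-seq samples, but the depth of each library is unknown, since peak lists do not carry it.

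H3K4me1 is written by the MLL3 and MLL4 methyltransferases and marks enhancers, including ones that are not in use. H3K27ac is written by p300 and CBP and marks enhancers and promoters in use. At the start sites of active genes H3K4me1 gives way to H3K4me3, which leaves H3K4me1 on the flanks. CEBPA is a transcription factor of the basic leucine zipper class that directs myeloid differentiation and binds a motif written here with the letters TTGCNNAA. The first 3 sequences below are the anti-CEBPA sites with the highest fold enrichment in distal regions of each class, among sites that hold this motif and lie in a region that also holds an anti-ER site. They are shown because p42 was found in each class. The next pair are the sites with the motif at Fos, and the last pair show the base composition under a region with H3K27ac only and one with H3K4me1 only. Coordinates are GRCm39 and sequences are the plus strand, read from the reference. Capitals mark the CEBP motif on either strand in the first 5 sequences and CG in the last pair.
Sp3, both marks: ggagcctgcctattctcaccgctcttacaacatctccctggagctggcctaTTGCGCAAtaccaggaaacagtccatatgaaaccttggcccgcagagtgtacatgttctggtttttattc
Musk, H3K4me1 only: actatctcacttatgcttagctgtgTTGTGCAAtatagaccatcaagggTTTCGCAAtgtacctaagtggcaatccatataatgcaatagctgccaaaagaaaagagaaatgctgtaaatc
Pou2f1, H3K27ac only: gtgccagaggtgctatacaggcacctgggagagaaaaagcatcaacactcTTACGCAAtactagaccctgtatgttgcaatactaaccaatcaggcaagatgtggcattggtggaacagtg
Fos, both marks, first site: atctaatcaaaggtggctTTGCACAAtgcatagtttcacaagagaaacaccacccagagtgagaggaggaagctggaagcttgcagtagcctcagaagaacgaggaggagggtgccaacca
Fos, both marks, second site: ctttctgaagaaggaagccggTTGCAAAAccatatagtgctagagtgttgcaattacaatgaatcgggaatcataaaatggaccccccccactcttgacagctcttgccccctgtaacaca
Stub1, H3K27ac only: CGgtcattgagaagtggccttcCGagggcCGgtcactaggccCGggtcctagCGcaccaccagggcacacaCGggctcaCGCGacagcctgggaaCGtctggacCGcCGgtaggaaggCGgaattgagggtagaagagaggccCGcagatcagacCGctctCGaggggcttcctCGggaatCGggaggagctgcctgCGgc
Cxcl10, H3K4me1 only: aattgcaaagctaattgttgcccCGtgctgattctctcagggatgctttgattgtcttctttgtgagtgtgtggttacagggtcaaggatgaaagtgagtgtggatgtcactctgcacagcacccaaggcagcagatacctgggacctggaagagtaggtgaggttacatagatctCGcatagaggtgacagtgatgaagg

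The Sp3 site (chr2:72877478-72877598) was intergenic, 66694 bp upstream of the nearest protein-coding start. Its anti-CEBPA fold was 126.8, and the region around it had an H3K27ac fold of 2.39 and an H3K4me1 fold of 3.89, where the medians of the lists were 3.35 and 3.43. The Musk site (chr4:58331036-58331156, intronic) had an anti-CEBPA fold of 86.3 beside an H3K4me1 fold of 3.27. The Pou2f1 site (chr1:165706454-165706574, intronic, 1178 bp downstream of a start) had an anti-CEBPA fold of 109.6 beside an H3K27ac fold of 2.56. The H3K27ac folds of the Sp3 and Pou2f1 regions were below the median of their list, while the H3K4me1 fold was above it at Sp3 and below it at Musk. The Fos windows (chr12:85536162-85536282 and chr12:85537353-85537473) were intergenic, 15564 and 16755 bp downstream of the Fos start, with anti-CEBPA folds of 5.74 and 7.88. The Stub1 window (chr17:26052134-26052334) lay in a promoter, 101 bp downstream of the start, and held 18 CG in 201 bases with 66.7% G and C. The Cxcl10 window (chr5:92497297-92497497) lay in the promoter window 649 bp upstream of the start and held 2 CG with 48.3% G and C.

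Regions with both marks covered the most sequence, although they were the least frequent class. Their place in the order of counts rested on the merging distance, since with peaks up to 500 bp apart merged both marks made up 33.1% of regions and H3K4me1 only 28.9%. They numbered 48967, or 27.1% (26.9 to 27.3) of all regions, and spanned 92.9 Mb, or 61.0% of the covered bases. H3K4me1 was found alone in 60576 regions (33.5%, 22.6 Mb) and H3K27ac alone in 71294 regions (39.4%, 36.7 Mb). Seen from the peaks, 44.9% (44.6 to 45.2) of H3K27ac peaks overlapped an H3K4me1 peak and 55.0% (54.7 to 55.3) of H3K4me1 peaks overlapped an H3K27ac peak. By bases the marks shared 42.4 Mb, which was 36.9% of the H3K27ac and 53.0% of the H3K4me1 sequence.

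**Figure D1:**
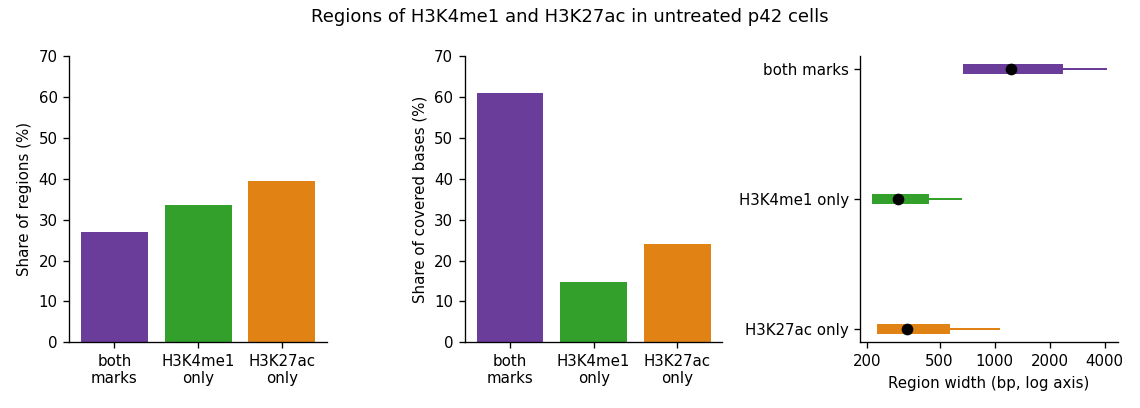
Left and middle, bars show the share of the 180837 regions and of the covered bases in each class (percent). Right, the point is the median width, the thick bar spans the quartiles and the thin line reaches the 90th percentile, on a log axis in bp. Regions with both marks make up 27.1% of regions and 61.0% of bases.

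The median width was 1225 bp for both marks, 295 bp for H3K4me1 only and 333 bp for H3K27ac only. A region with both marks joins at least 1 peak of each list and is wider by construction. Yet the peaks themselves also differed. H3K27ac peaks that overlapped H3K4me1 had a median width of 742 bp, against 333 bp for those that did not. H3K4me1 peaks had a median of 503 bp with H3K27ac and 295 bp without. Most regions with both marks, 64.2% (63.7 to 64.6), joined 1 peak of each list. A further 21.8% joined several H3K4me1 peaks with 1 H3K27ac peak, with a median width of 2540 bp, while the reverse was found in 6.50%. Regions over 5 kb numbered 3204 with both marks, 35 with H3K27ac only and 1 with H3K4me1 only. Only the H3K4me1 chromatin was digested with micrococcal nuclease and only the H3K27ac buffers held sodium butyrate, which inhibits deacetylases, so mark and preparation cannot be told apart in any of these widths.

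In the lists as deposited, the promoter window separated the marks more sharply than the classes. Within 2500 bp of a start this did not hold. The promoter window was set from 1000 bp upstream to 100 bp downstream of the start of any annotated transcript, and covered 5.16% of the genome. H3K27ac summits lay in it in 16.8% (16.5 to 17.1) of regions with both marks and in 15.5% (15.2 to 15.7) of regions with H3K27ac only. The order turned around with stricter lists, as given in the closing section, and within 2500 bp of a start the shares were 38.8% and 39.8%. H3K4me1 summits lay in promoters in 11.9% (11.6 to 12.2) of regions with both marks and in 7.95% (7.74 to 8.17) of regions with H3K4me1 only. Here the order was the same under every alternative tried. Within 2500 bp of a start these H3K4me1 shares were 37.7% and 30.3%. At that distance the classes of H3K4me1 differed more than the marks did in regions with both marks. Exons, which covered 5.54% of the genome, held 18.5% of the H3K27ac summits in regions with H3K27ac only, 10.8% in regions with both marks and 6.76% of the H3K4me1 summits in regions with H3K4me1 only. Intergenic sequence, 41.9% of the genome, held 21.6% of summits with H3K4me1 only, 11.7% of H3K27ac summits with both marks and 7.07% with H3K27ac only. H3K4me1 without H3K27ac was thus the most intergenic class, and H3K27ac without H3K4me1 the most exonic.

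Median distances set H3K4me1 only apart, and in regions with both marks they were nearly the same for either mark. The median distance to the nearest start of a protein-coding transcript was 15438 bp for H3K4me1 only and 11864 bp for H3K27ac only. In regions with both marks it was 11688 bp for the H3K27ac summit and 11662 bp for the H3K4me1 summit. The marks parted close to starts. Within 250 bp of such a start lay 8.30% of the H3K27ac summits but 1.75% of the H3K4me1 summits of the same regions with both marks. Of the regions with H3K4me1 only, 0.858% had their summit within 250 bp, and 21.2% lay over 50 kb away. In regions with both marks the summits of the 2 marks were a median of 311 bp apart. Where the H3K27ac summit lay in the promoter of a protein-coding transcript they were 1068.5 bp apart (3740 regions), against 288 bp elsewhere (45227 regions).

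Around the annotated 5' ends of 21603 protein-coding gene entries, counted by entry and not by symbol, H3K27ac peaked just downstream of the start and H3K4me1 was at its lowest there. H3K4me1 peaks covered 2.85% of the starts themselves, 9.21% of positions 1700 bp upstream and 13.0% of positions 2250 bp downstream. H3K27ac peaks covered 36.6% of the starts and 44.6% of positions 250 bp downstream. Of these genes, 10327 had H3K27ac within 500 bp of the start. Among them H3K4me1 covered 4.82% of starts, 17.6% of positions 1700 bp upstream and 25.2% of positions 2350 bp downstream. In the other genes H3K4me1 covered 1.05% of starts and at most 2.11% of positions within 5 kb. The dip at the start therefore lay between shoulders that were found mostly at genes with H3K27ac.

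**Figure D2:**
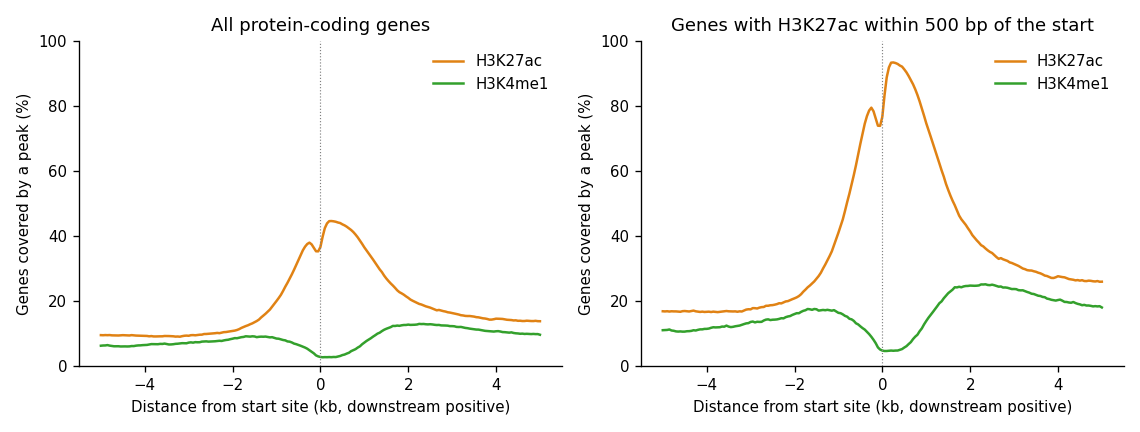
Share of genes (percent) with an H3K27ac or H3K4me1 peak at each distance from the annotated start (kb, downstream positive), for 21603 protein-coding gene entries and for the 10327 with H3K27ac within 500 bp. H3K27ac reaches 44.6% and 93.3%, 250 bp downstream, where H3K4me1 is near its lowest.

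The overlap of the marks followed the strength of the peaks. Peaks of each list were ranked by the authors' −log10 p and split into deciles of 12934 or 12935 H3K27ac and 13465 H3K4me1 peaks. Of the H3K27ac peaks, 70.4% (69.6 to 71.2) overlapped H3K4me1 in the first decile, 74.0% (73.3 to 74.8) in the second and 22.7% (22.0 to 23.5) in the last. Of the H3K4me1 peaks, 87.6% (87.0 to 88.1) overlapped H3K27ac in the first decile and 35.6% (34.8 to 36.5) in the last. The H3K4me1 share was highest in the first decile, while the H3K27ac share was highest in the second. Promoters of protein-coding transcripts set the first H3K27ac decile apart. They held 31.7% of its summits, and of those peaks 60.1% overlapped H3K4me1, against 75.2% of the peaks elsewhere. In the second decile these shares were 37.1% and 78.3%. Stronger peaks are also wider (median 2602 bp in the first H3K27ac decile and 239 bp in the last) and so have more bases that can overlap.

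**Figure D3:**
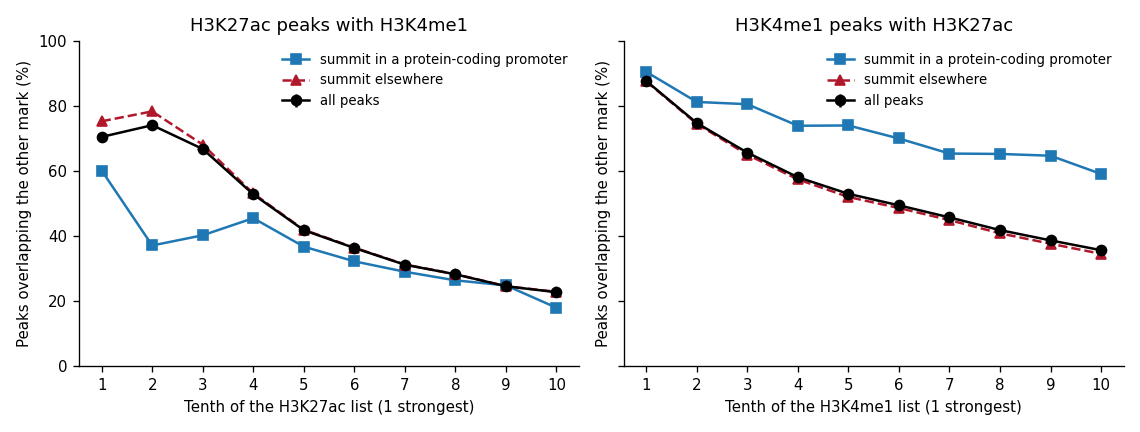
Share of peaks (percent) that overlap the other mark by decile of the list, from 1 (highest −log10 p) to 10, for H3K27ac (left) and H3K4me1 (right), for all peaks with Wilson 95% intervals and split by summit place without intervals. H3K27ac peaks at promoters of protein-coding transcripts lie below the others in all deciles but the ninth, and H3K4me1 peaks there lie above the others in all 10.

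The sequence under the summits differed with place and class. In windows of 500 bp around the summit, more than 1000 bp from any start, the median G and C content was 47.4% for H3K27ac only, 46.6% for both marks at the H3K27ac summit, 45.4% at the H3K4me1 summit and 43.6% for H3K4me1 only, against 41.6% in all 5122672 adjacent windows of the genome. A CpG ratio of observed to expected over 0.6, a usual cut for CpG islands, was found in 0.581% or fewer of these distal windows and in 1.15% of the genome. At promoters it was found in 40.3% of windows at the H3K27ac summit of regions with both marks, in 30.7% with H3K27ac only and in 1.04% with H3K4me1 only. In the same promoter regions with both marks, windows at the H3K4me1 summit reached it in 1.39%. At promoters H3K27ac summits were thus more often CpG rich by this cut than H3K4me1 summits, although most were below it. Their median ratio was 0.391 with both marks and 0.332 with H3K27ac only.

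Motif letters of hematopoietic factors were counted in the same windows, on both strands. The PU.1 letters AGGAAGT, for the myeloid and B cell factor encoded by Spi1, were in 11.6% of genome windows. They were in 23.7% (23.2 to 24.1) of distal windows at the H3K27ac summit of regions with both marks, in 19.6% at the H3K4me1 summit, in 16.6% (16.3 to 16.9) with H3K27ac only and in 14.6% (14.3 to 14.9) with H3K4me1 only. The RUNX letters TGTGGTT were in 11.4% of genome windows and in 14.3%, 13.6%, 12.8% and 12.8% of these distal windows in the same order. The AP-1 letters TGANTCA gave 16.7%, 15.6%, 14.8% and 14.3%, with 14.3% in the genome. Of the letters counted in distal windows, those of PU.1 had the widest range of shares between the classes. The CEBP letters TTGCNNAA were in 21.9% of genome windows and in 20.6%, 20.3%, 17.6% and 19.8% of the distal windows, so none of the classes was above the genome. The GATA letters AGATAA were in 30.0% of genome windows, which are richer in A and T, and in 24.2%, 26.3%, 21.1% and 28.7%. At promoters with H3K27ac, the SP and KLF letters GGGCGG were in 42.8% of windows with both marks and in 35.5% with H3K27ac only, against 4.58% in the genome. The letters CCGGAAG, a CpG-holding form of the ETS motif, were in 13.3% and 9.48%, against 1.40%. A match of letters is a description and not a site of binding.

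p42 sites, taken as summits of the deposited anti-CEBPA list (47489 sites, 1 library), were found mostly in regions with both marks when they were in a region at all. Such regions held 17.9% (17.6 to 18.3) of the sites, H3K4me1 only held 1.89% and H3K27ac only held 2.99%, and 77.2% lay in no region. Per Mb this was 91.7 sites with both marks, 39.6 with H3K4me1 only, 38.7 with H3K27ac only and 14.8 outside. Of all regions, 5.37% held an anti-CEBPA summit. The share was 15.2% (14.9 to 15.5) of regions with both marks, 1.44% (1.35 to 1.54) with H3K4me1 only and 1.95% (1.85 to 2.05) with H3K27ac only. The anti-ER antibody, which binds the ERT2 end of the transgene product (23210 sites, 1 library), placed 41.3% of its sites in regions with both marks, 2.58% and 5.92% in the regions with 1 mark and 50.2% outside. Of all regions 5.55% held an anti-ER summit, and by class it was 16.6%, 0.979% and 1.88%. The density per Mb was 103.2, 26.4, 37.4 and 4.70. Most anti-CEBPA sites thus lay in no region, while the anti-ER share there, 50.2% (49.6 to 50.9), was not clearly a majority. For both antibodies most of the sites in a region lay in one with both marks.

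Wider regions have more bases in which a site can fall, so the classes were also set side by side within bins of width. Among regions over 500 and up to 1000 bp, an anti-CEBPA summit was found in 4.79% (4.44 to 5.16) with both marks, 3.12% (2.79 to 3.49) with H3K4me1 only and 2.80% (2.53 to 3.09) with H3K27ac only. Among regions over 1000 and up to 2000 bp it was 12.6% (12.035 to 13.1), 6.88% (5.78 to 8.18) and 8.30% (7.62 to 9.04). In regions up to 250 bp, where 424 regions had both marks, the shares were 0.472% (0.129 to 1.70), 0.543% and 0.313%, and the intervals overlapped. Above 250 bp regions with both marks had the highest share in every bin. The bin over 2000 bp has no upper limit and does not match width. Over 5 kb lay 3204 of its 14993 regions with both marks and 35 of its 1928 with H3K27ac only. The share also moved with the strength of the peaks. In the first decile of H3K27ac peaks, 34.8% (33.8 to 35.7) of those with H3K4me1 and 10.2% (9.30 to 11.2) of those without held an anti-CEBPA summit, and in the fifth decile 2.57% (2.18 to 3.03) and 1.25% (1.02 to 1.52). Within the first decile the median width was 3135 bp with H3K4me1 and 1679 bp without, so width differed there too.

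**Figure D4:**
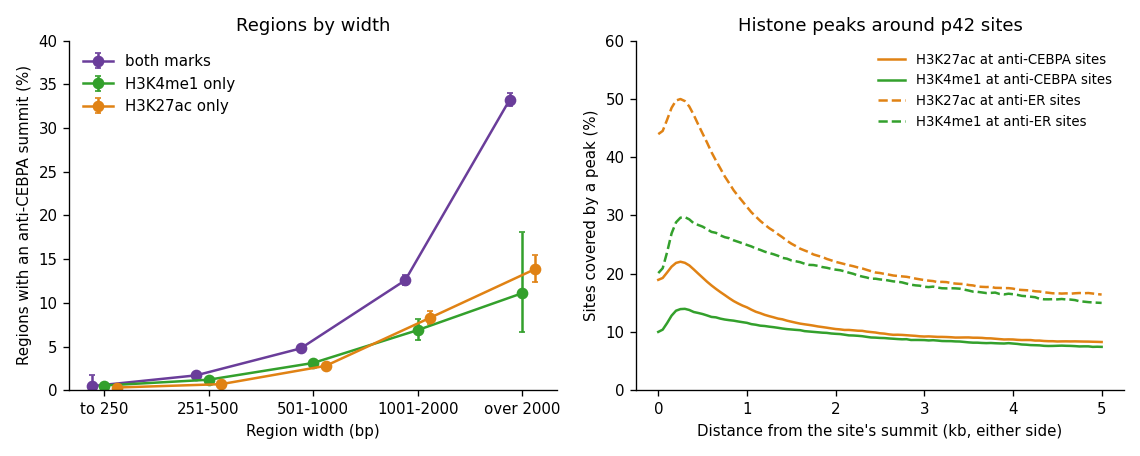
Left, share of regions (percent) that hold an anti-CEBPA summit by width bin and class, with Wilson 95% intervals. Right, share of anti-CEBPA and anti-ER sites (percent) covered by an H3K27ac or H3K4me1 peak at each distance from the site's summit (kb, mean of either side). Regions over 2000 bp reach 33.2% with both marks and 13.8% with H3K27ac only, but this bin has no upper limit and widths still differ in it. All 4 curves rise before they fall.

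Both marks were lower on the p42 site than beside it. H3K4me1 peaks covered 10.0% of anti-CEBPA summits and 14.0% of positions 300 bp away, and H3K27ac peaks covered 18.9% and, 250 bp away, 22.1%. At anti-ER sites H3K4me1 covered 20.1% of summits and 29.7% of positions 300 bp away, and H3K27ac covered 44.0% and, 250 bp away, 49.98%. At 5 kb, H3K4me1 covered 7.45% of positions from anti-CEBPA sites, above its 3.04% of the genome. The CEBP letters were in 55.0% of 500 bp windows at anti-CEBPA sites in regions with both marks, 55.7% with H3K4me1 only, 56.9% with H3K27ac only and 59.6% outside regions. PU.1 letters were in 26.1%, 14.4%, 22.1% and 12.3% of these windows. The CEBP letters were most frequent outside regions and the PU.1 letters in regions with both marks. The median fold of the sites was 8.16 in regions with both marks, 7.31 with H3K4me1 only, 7.68 with H3K27ac only and 7.68 outside. This order did not hold for the 17954 anti-CEBPA sites whose summit lay in an anti-ER peak. Their median anti-CEBPA fold was 9.12, 10.1, 9.27 and 14.3 in the same order, highest outside regions. The CEBP letters were in 56.9%, 58.9%, 60.7% and 68.8% of their windows.

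Genes were classed by the promoters of their protein-coding transcripts. Of 21408 protein-coding genes, counted by distinct symbol with at least 1 protein-coding transcript, 31.3% had a promoter in a region with both marks, 20.7% with H3K27ac only, 1.67% with H3K4me1 only and 46.4% with neither. Each gene takes the first of these classes that any of its promoters meets. The class is that of the whole region, so a peak of either mark can lie outside the promoter itself. A gene with both marks at a promoter is meant in this sense here and in the lists below. Genes with both marks at a promoter had a start site inside an H3K27ac peak in 91.7% of cases and inside an H3K4me1 peak in 21.2%. They had more distal regions of each class nearest to them than the other genes. The mean number with both marks was 3.96, against 1.97 for genes with H3K4me1 only, 1.40 with H3K27ac only and 0.337 with neither. Their means were 5.12 for distal regions with H3K4me1 only and 5.12 for those with H3K27ac only. A p42 summit of the anti-CEBPA list lay in a promoter of 16.1% of the genes with both marks, 7.59% with H3K27ac only, 8.68% with H3K4me1 only and 3.02% with neither.

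The label of a progenitor line was checked against gene lists. The shares to set beside every list are those over all protein-coding genes. These were 31.3% with both marks, 20.7% with H3K27ac only, 1.67% with H3K4me1 only and 46.4% with neither. Of 16 genes for stem and progenitor factors, 13 had a promoter in a region with both marks. Among them were Gata2, Runx1, Tal1, Lyl1, Lmo2 and Fli1, which code for transcription factors or cofactors of blood stem cells. Of the 16, 14 had a start site inside an H3K27ac peak and 4 inside an H3K4me1 peak. Meis1 and Gfi1b had H3K27ac only, and Mecom had neither and no distal region nearest to it. A median of 14.5 distal regions with both marks was nearest to each gene of the progenitor list, where the median over all protein-coding genes was 0. It was 5.5 in the C/EBP list and 1 in the housekeeping list, both given below. The share of genes with both marks at a promoter was 81.25% in the progenitor list, 84.6% in the housekeeping list and 87.5% in the C/EBP list. The promoter class alone thus did not set the progenitor list apart from these. Of 16 genes of other lineages, such as the liver genes Alb and Afp and the neural gene Sox1, 15 had neither mark and Pax6 had H3K27ac only. Of 14 B and T lymphoid genes, 9 had neither mark. Cd79b and Rag2 had both, and Cd79a, Cd4 and Lck had H3K4me1 only. Of 12 erythroid and megakaryocyte genes, Klf1, Tfrc, Itga2b and Pf4 had both marks, those with H3K27ac only included Gata1 and Epor, and 5 had neither, including the globin genes Hba-a1 and Hbb-bs. Of 8 mast cell and basophil genes, Cpa3 and Hdc had both marks, Mitf had H3K27ac only and 5 had neither. The share with both marks was 33.3% in the erythroid and megakaryocyte list and 25% in the mast cell and basophil list, near that of all genes.

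Of 14 myeloid factors and receptors, 9 had both marks, including Spi1, Cebpa, Cebpe, Gfi1, Csf1r and Csf2rb. Id2 and Csf2ra had H3K27ac only, Ly6c2 had H3K4me1 only, and Irf8 and Klf4 had neither at a promoter. Irf8, a factor of monocyte and dendritic cell fate, nevertheless had 9 distal regions with both marks and 29 with H3K4me1 only nearest to it. Of 10 neutrophil granule genes, 7 had both marks, including Mpo, Elane, Prtn3, Ltf, Lcn2 and Camp, Ngp had H3K27ac only, and Ctsg and S100a9 had neither. Mpo, which codes for myeloperoxidase, Ltf, Lcn2, Camp and S100a8 had an anti-CEBPA summit in a promoter, 5 of 10, where the share over all protein-coding genes was 8.16%. It was 3 of 14 in the myeloid list, 3 of 16 in the progenitor list and 4 of 14 in the cytokine list. The C/EBP list had 2 of 8 and the housekeeping list 2 of 13. In the AP-1 and lymphoid lists it was 1 of 14 each, and in the mast cell list 1 of 8. The erythroid, LPS sensing and other-lineage lists had 0. Among all genes with both marks at a promoter the share was 16.1%. Of the 8 genes of the C/EBP list, which includes the Tribbles regulators Trib1 and Trib2, 7 had both marks and Trib2 had H3K27ac only.

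**Figure D5:**
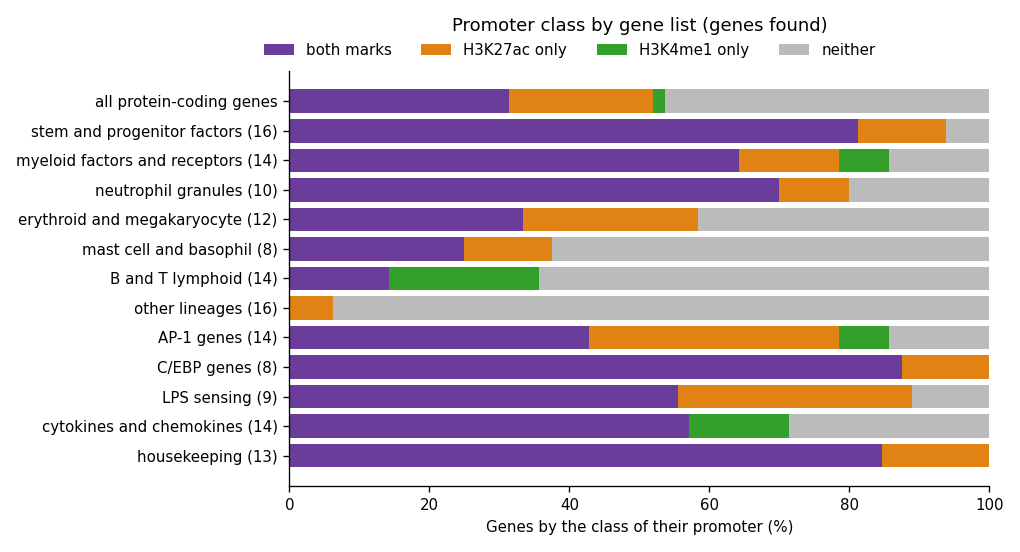
Bars show the share of genes (percent) in each list by the class of their promoter, with all 21408 protein-coding genes on top and the number of genes found in parentheses. Progenitor, C/EBP and housekeeping lists are mostly both marks, and the list of other lineages has none.

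The lists of inflammatory genes were mixed. Of 14 genes listed for AP-1, Fos, Fosl2, Junb, Jund, Atf4 and Mafk had both marks at a promoter, and those with H3K27ac only included Fosb, Fosl1, Jun and Batf. Batf3 had H3K4me1 only, and Atf3 and Maf had neither. None of the 14 had a start site inside an H3K4me1 peak, which was so for 7.37% of all protein-coding genes, and the housekeeping and LPS sensing lists were also at 0. The median number of distal regions nearest to one of these genes was 7.5 with H3K4me1 only, 3 with both marks and 2 with H3K27ac only, and over all protein-coding genes it was 0 in each class. Jun, which codes for a partner of FOS, had 60, Fosl2 had 34 and Fos had 26. Of 14 cytokine and chemokine genes, 8 had both marks, including Il6, Il1b, Tnf, Cxcl2, Cxcl3 and Ccl3, and no gene had H3K27ac only. Cxcl10 and Il10 had H3K4me1 only, and Il12b, Cxcl1, Ccl2 and Csf2 had neither. Il6 had 45 distal regions with H3K4me1 only nearest to it and 11 with both marks. Of 9 genes of LPS sensing, Tlr4, Cd14, Ticam1, Tlr2 and Irf3 had both marks, Ly96, Myd88 and Irak4 had H3K27ac only and Traf6 had neither. Of 13 housekeeping genes found, 11 had both marks and Eef1a1 and Pgk1 had H3K27ac only.

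At Fos (chr12:85520658-85524047), which codes for an AP-1 subunit, the gene with 50 kb to either side held 11 regions with both marks, 35 with H3K4me1 only and 1 with H3K27ac only. The regions with both marks summed to 34904 bp and those with H3K4me1 only to 20560 bp. The start lay in a region with both marks of 4071 bp (H3K27ac fold 76.3, H3K4me1 fold 3.89), and the region next to it upstream, of 8452 bp, had an anti-CEBPA site of fold 12.005 and an H3K27ac fold of 49.1. A region of 6398 bp downstream, with folds of 21.4 and 7.47, held the 2 motif sites printed above. Of 5 anti-CEBPA sites at the locus, 3 were in regions with both marks, 1 in a region with H3K4me1 only and 1 outside. The many short regions between them carried H3K4me1 without an H3K27ac peak.

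Cxcl10 (chr5:92494497-92496748), a chemokine gene induced by interferon, held 4 regions with both marks, 8 with H3K4me1 only and 2 with H3K27ac only within its 102 kb. Its promoter carried an H3K4me1 peak of 499 bp with a fold of 3.11 and no H3K27ac peak. The regions with both marks lay in a cluster nearest to Art3, where an anti-CEBPA site of fold 25.2 was found in a region of 2984 bp, 23717 bp upstream of the Cxcl10 start. The neighboring region of 2637 bp had the highest H3K27ac fold of the regions with both marks, 18.2, and no anti-CEBPA site. At Cebpb (chr2:167530835-167532338) 17 regions had both marks, 13 had H3K4me1 only and 6 had H3K27ac only, and all 5 anti-CEBPA sites lay in regions with both marks. The widest of these was 9924 bp, its H3K27ac summit 21483 bp downstream of the start, with 2 anti-CEBPA sites of fold up to 24.0. At Gadd45a (chr6:67012070-67014441), a stress response gene, 16 regions had both marks, 24 had H3K4me1 only and 7 had H3K27ac only, and all 6 anti-CEBPA sites lay in regions with both marks. The strongest had a fold of 48.9, in a region 32480 bp upstream of the start.

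Regions with H3K4me1 only outnumbered those with both marks at Fos, Cxcl10, Gadd45a and Gata2, and not at Cebpb, Spi1, Kit and Runx1. At Spi1 (chr2:90912562-90946101), the gene for PU.1, 15 regions had both marks, 2 had H3K4me1 only and 22 had H3K27ac only. A single region with both marks of 16840 bp covered the start (H3K27ac fold 87.5, H3K4me1 fold 8.10, 2 anti-CEBPA and 3 anti-ER sites). The next one downstream, of 6931 bp, had an anti-CEBPA site of fold 47.5. At Kit (chr5:75735576-75817404), the receptor for stem cell factor, the counts were 24, 11 and 28, and a region with both marks of 9883 bp over the start held no p42 site. At Runx1 (chr16:92398354-92623037) they were 63, 43 and 33, and 11 of 12 anti-CEBPA sites lay in regions with both marks. The widest of the Runx1 regions with both marks spanned 12056 bp inside the gene, 110745 bp downstream of the start, with H3K27ac fold 49.2, H3K4me1 fold 8.96, 2 anti-CEBPA sites of fold up to 39.6 and 3 anti-ER sites. At Gata2 (chr6:88170559-88184018) the counts were 6, 10 and 3. Over the 8 loci, p42 sites in a region were in one with both marks in all but 3 cases, which lay at Fos and Cxcl10.

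Among distal regions with both marks, the best by the sum of ranks in the lists was at chr1:170821811-170828583, 19918 bp upstream of Fcgr4, a gene for an Fc receptor of myeloid cells. It spanned 6773 bp with an H3K27ac fold of 74.1, an H3K4me1 fold of 9.14, 2 anti-CEBPA and 3 anti-ER sites. The others lay near Scaf8 (chr17:3131276-3133764), with folds of 25.1 and 2.67, and near Ccr1, a chemokine receptor gene (chr9:123735396-123754516), with an H3K4me1 fold of 14.3 and 4 anti-CEBPA sites. At Scaf8 the H3K4me1 fold was low for its rank of 342 and below the median of the list, 3.43. The best promoter regions were nearest to Xcr1, Actr3 and Hnrnpu, with H3K27ac folds of 41.6, 138.8 and 147.4. Their distances to these protein-coding starts were 37451, 169 and 396 bp, so the region nearest to Xcr1 was a promoter of another annotated transcript. The widest regions with both marks, 35993, 33839 and 31323 bp, were at Nek6, Inpp5d and Ctsd. The widest with H3K27ac only, 9244, 8479 and 7735 bp, had their summits within 226 bp of the starts of Stub1, Set and Mrps34. They held no anti-CEBPA site, where the Nek6, Inpp5d and Ctsd regions held 2, 3 and 3. The best distal regions with H3K27ac only lay near Yap1, Haao and Sfi1, with folds from 60.3 to 76.3. The Yap1 region was only 235 bp wide, where the first H3K27ac decile had a median peak width of 2602 bp. The best at promoters were nearest to Potefam3f, Mreg and Efcab2, with folds of 67.6, 156.3 and 162.5. Their distances to these protein-coding starts were 219379, 31763 and 96 bp, so the regions nearest to Potefam3f and Mreg were promoters of other annotated transcripts.

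The best-ranked regions with H3K4me1 only need a separate word. The 3 best distal ones lay at the start of chromosome 9 (chr9:3000278-3038258), where 13 regions with H3K4me1 only and 2 with both marks stood in 38.0 kb and 12 of the 20 best H3K4me1 peaks were found. Their folds were low for such ranks, 1.77 to 3.42, and 32 anti-CEBPA sites were called in the same stretch. Their part in the class was small, and without them 60563 regions with H3K4me1 only were left. The best regions with H3K4me1 only at promoters lay at chr10:127417786-127418708 near Lrp1 (fold 9.89), chr9:119766876-119767489 near Ttc21a (fold 9.81) and chr17:27558064-27559754, nearest to Lemd2 (fold 5.38). The last was 135894 bp from the Lemd2 start and so a promoter of another annotated transcript. None of these held a p42 site. The widest region of the class outside this stretch, 4095 bp, was nearest to Fem1al.

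Single genes gathered many regions. Regions with both marks were most often nearest to Zfp386 (90), Foxp1 (83), Pde4d (82), Runx1 (79) and Fut8 (72). Regions with H3K4me1 only were most often nearest to Zfp386 (267), Jarid2 (119), St3gal1 (113), Foxp1 (110) and Pde4d (106). Zfp386 stands here for the immunoglobulin heavy chain locus beside it, a stretch of 1249 kb (chr12:114767174-116016333) with 46 annotated variable gene segments and 35 variable pseudogenes. Of the regions there, 46 of 90 with both marks overlapped a variable segment or pseudogene, as did 9 of 19 with H3K27ac only and 3 of 267 with H3K4me1 only. H3K27ac-only regions were most often nearest to Eif4g3 (93), Agap1 (85), Clasp1 (81), Elmo1 (77) and Ubr4 (77), where 93, 84, 80, 77 and 77 lay inside the gene. Their median H3K27ac fold was 2.80 to 3.08 and their median width 316 to 347 bp, near the 3.07 and 333 bp of the whole class. The highest folds were 43.9 at Clasp1 and 26.6 at Agap1. Ubr4 had 2 regions with H3K4me1 only and 4 with both marks.

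The X chromosome differed from the autosomes in both lists. It held 3.66 H3K4me1 and 9.05 H3K27ac peaks per Mb, where the lowest autosomes had 38.0 and 35.1. Of its 1801 regions, 70.7% had H3K27ac only, 15.7% H3K4me1 only and 13.6% both marks. The median H3K27ac fold of its peaks was 4.47, where autosomes had 3.17 to 3.43. For H3K4me1 it was 3.27, where autosomes had 3.30 to 3.58. Whether weak peaks were harder to call on X was not tested, so these shares may not compare directly. On the autosomes H3K27ac only ranged from 30.0% on chromosome 1 to 46.1% on chromosome 5, H3K4me1 only from 27.6% on chromosome 5 to 43.5% on chromosome 1, and both marks from 26.2% to 28.4%. The share with both marks was thus nearly even across autosomes while the balance of the single marks moved.

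The other lists of the series were used to see which single-mark regions met a peak elsewhere. After LPS, bacterial lipopolysaccharide given at 100 ng/mL for 2 h, the p42 H3K27ac list overlapped 82.8% (82.5 to 83.1) of regions with both marks, 48.8% (48.4 to 49.1) with H3K27ac only and 8.87% (8.65 to 9.10) with H3K4me1 only. Where the peak was in the top 20% of its own list, 99.8% of 7185 regions with H3K27ac only and 14.3% of 5077 regions with H3K4me1 only overlapped a peak of that list. Weak H3K27ac peaks were the ones not found again. The LPS list was the shorter, with 107114 peaks over 95.4 Mb against 129345 over 114.7 Mb untreated. The untreated p30 H3K27ac list held 139190 peaks. Treatment or isoform cannot be told apart from list length in these overlaps. In untreated cells with the shorter isoform p30, H3K4me1 overlapped 86.9% of regions with both marks, 68.9% with H3K4me1 only and 18.8% with H3K27ac only, and H3K27ac overlapped 87.6%, 18.7% and 66.3%. The same classing of the p30 lists gave 214363 regions, of which 26.1% had both marks, 40.8% H3K4me1 only and 33.03% H3K27ac only. The share with both marks was close in the lines, and the p30 H3K4me1 list was the longer, with 168028 peaks. The libraries behind these lists were pooled too, so no test of p42 against p30 was made.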

How the data were processed

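ChIP-seq peak lists of untreated p42-expressing HPC-7 cells were analysed: H3K4me1 (2 pooled samples), H3K27ac (3 pooled samples), anti-CEBPA and anti-ER (1 library each). Groups follow the sample labels. According to the study and its processing notes, reads were trimmed with Trim Galore 0.6.6, aligned with Bowtie2 to mm39, cleared of duplicates with Picard and called with MACS2 against input. The deposited lists give the fold enrichment at the summit, the −log10 p and the −log10 q, and reach down to a q of about 0.05. These values of the authors were used only to rank, filter or describe peaks within a list. The libraries' depth is not given there.

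Lists were merged at 1 bp overlap on chromosomes 1 to 19 and X with Python 3.11.15, pandas 2.3.3 and scipy 1.17.1. Summits were placed with GENCODE vM39 on GRCm39 as promoter (from 1000 bp before to 100 bp after a start), exon, intron or intergenic, in that order. Distal means over 1000 bp from any start. Base composition and motif letters were counted in 500 bp windows, and the code was tested on simulated peaks. No test between classes was run, since each list pools its replicates. Regions, gene lists and loci were chosen with earlier results of these data known. All members of each gene list were counted. Named were the members of the smaller classes and up to 6 of the larger ones, the 3 distal and 3 promoter regions of each class with the best −log10 p (both marks: lowest sum of ranks), the 3 widest, the 5 genes with most regions of a class, and 8 loci with 50 kb on either side. Some list members are not reported here by name. Alternatives were other thresholds, list sizes, merging distances, promoter definitions and p42 lists.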

Additional observations from a re-analysis of the deposited data

How the results depend on the processing

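Each of the 11 main values was recomputed under 4 to 7 alternatives and 2 more chosen after seeing the data (without chromosome X, and without the start of chromosome 9), 79 values in all. The latter 2 left all 11 values within their intervals or within 1.5 times.

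The difference in the promoter share of H3K27ac summits, both marks minus H3K27ac only, was 1.34 percentage points and reversed to -3.02 with q under 1e-05, -9.38 with the best 50000 peaks of each list and -1.08 within 2500 bp of a start, and was 6.09 with peaks up to 500 bp apart merged. For H3K4me1 summits, both marks minus H3K4me1 only, it was 3.96 and became 4.43 with the best 50000 peaks, 4.62 with merging over 500 bp, 7.40 within 2500 bp and 1.94 with protein-coding transcripts.

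Regions with both marks, H3K4me1 only and H3K27ac only numbered 28897, 30570 and 43627 with q under 1e-05, and 19419, 21310 and 28103 with the best 50000 peaks. Merging over 500 bp gave 36055, 31477 and 41288, so that H3K4me1 only (28.9%) was then less frequent than both marks (33.1%). Median widths in the same order were 1259, 300 and 347 bp with q under 0.01, 1790, 395 and 570 bp with q under 1e-05, and 2295, 490 and 918 bp with the best 50000 peaks. With merging over 500 bp they were 2236 bp for both marks and 376 bp for H3K27ac only.

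The share of regions with an anti-CEBPA summit, in the same order, was 21.4%, 2.29% and 4.73% with q under 1e-05, 26.8%, 3.16% and 8.72% with the best 50000 peaks, and 23.4%, 2.21% and 3.10% with merging over 500 bp. With q under 0.01 it was 15.6% for both marks and 2.08% for H3K27ac only. Anti-ER summits gave 16.6% and 0.979% for both marks and H3K4me1 only. Sites of both antibodies gave 12.4%, 0.741% and 1.36%, and anti-CEBPA sites with q under 1e-05 gave 14.1%, 1.29% and 1.75%. Regions with both marks had the highest share throughout. The cause of these changes was not tested. No paired analysis was possible because each list pools its replicates, and for the same reason no replicate could be left out.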
